A study of Mus musculus with 18 samples.

Results

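The cyclin and CDK genes that govern passage through G1, the INK4 inhibitors that restrain them and their common substrate were examined in 18 mouse mammary tumors. The set was fixed by name and holds 10 of the 57126 genes in the count table: the D-type cyclins Ccnd1, Ccnd2 and Ccnd3, the E-type cyclins Ccne1 and Ccne2, the kinases Cdk4 and Cdk6, the inhibitors Cdkn2a and Cdkn2b, and Rb1. In this pathway, D-type cyclins bind CDK4 or CDK6 and phosphorylate the retinoblastoma protein, which releases E2F transcription factors. E2F then turns on the E-type cyclins, which activate CDK2, and the genes of DNA replication. The INK4 proteins p16INK4A and p15INK4B, from Cdkn2a and Cdkn2b, block CDK4 and CDK6, and Cdkn2a also encodes p19ARF, which stabilizes p53. Gain of CCND1 or CCNE1 and loss of CDKN2A or RB1 are recurrent events in human breast cancer.

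The tumors arose in female F1 mice of a BALB/c and C57BL6/J cross after adenovirus carrying Cre recombinase was injected into the mammary ducts. Recombination left 7 MaP R172H/- tumors with mutant p53 R172H over a deleted Trp53 allele, 5 MaP R245W/- tumors with mutant p53 R245W over a deleted allele, and 6 MaP -/- tumors with loss of both alleles. Only ductal epithelial cells recombined, so stromal and immune cells in each bulk tumor kept wild-type Trp53. Rosa26 LSL-TdTomato/+, a Cre-dependent reporter, was also present in 3 MaP R172H/- and 3 MaP R245W/- tumors and in 0 MaP -/- tumors. The 6 MaP -/- tumors came from 4 mice (JM663 and JM833 each gave 2), and the other 12 tumors from 1 mouse each, so the MaP -/- tumors are not 6 independent animals. All MaP R172H/- libraries were read on an Illumina HiSeq and all others on an Illumina NovaSeq, and the study's subtypes divide along the same line, luminal B or HER2-enriched against triple-negative. Genotype therefore cannot be told apart from instrument or subtype wherever MaP R172H/- tumors are compared. Histology divided in part along the same line. The study classed all 7 MaP R172H/- tumors as nonmetaplastic adenocarcinomas and most MaP R245W/- and MaP -/- tumors as metaplastic. Both JM833 tumors, and no others, were metaplastic poorly differentiated carcinomas. The part of histology in any difference was not tested. The labels call the JM779 and JM836 tumors T1, whereas the study's sample list marks T2 as sequenced for both mice, and the names here follow the labels.

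Total counts ran from 23113578 to 37365062 per tumor, and the smallest count of any of the 10 genes in any tumor was 195 (Cdkn2b in JM833-T1), so none was limited by depth. Levels are counts per library total (CPM) after scaling by the trimmed mean of M values (TMM). Trp53 averaged 40.6 ± 13.5 CPM (SD, n = 7) in MaP R172H/- and 13.7 ± 4.31 CPM (SD, n = 6) in MaP -/- tumors, a log2 fold change of 1.58 ± 0.31 (SE, FDR 0.00794, edgeR quasi-likelihood test), and 26.8 ± 19.9 CPM (SD, n = 5) in MaP R245W/- tumors, which did not pass against MaP -/- (FDR 0.426). Not every mutant tumor had raised Trp53. YZ11 (MaP R172H/-) held 10.8 CPM, within the MaP -/- range of 9.41 to 21.6 CPM. RM0014 (MaP R245W/-) was the lowest of all 18 tumors at 9.08 CPM. Epithelial markers had a summed level above 0 in every tumor, though 1 of the 8 was at 0 in at least 1 MaP R245W/- tumor. Their summed level fell to 370 CPM in YZ7 (MaP R172H/- median 4040), 475 CPM in JM1233 (MaP R245W/- median 4111) and 163 CPM in JM779-T1 (MaP -/- median 1757). JM833-T1 held 3280 CPM of adipocyte markers, JM1233 held 5583 CPM of immune and 911 CPM of skeletal muscle markers, and JM1126 held 18759 CPM of fibroblast markers. In bulk RNA, fewer cells of a type and less RNA per cell cannot be told apart.

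Ccnd1 was the only member that passed the main test in a comparison of genotypes, being higher in MaP R172H/- than in MaP -/- tumors. The remaining differences between tumors were mostly those of single animals: Ccnd2 in YZ7 and YZ4, and Ccnd1, Cdkn2a and Cdkn2b in the tumors of mouse JM833. Per kilobase of exon, the median levels over 18 tumors fell in the order Cdk4 (64.3 CPM per kb), Ccnd1 (55.5), Cdkn2a (36.4), Cdkn2b (9.89), Cdk6 (7.44), Rb1 (5.66), Ccnd3 (4.87), Ccnd2 (4.86), Ccne1 (4.09) and Ccne2 (3.10). On this scale only the step from Cdkn2a to Cdkn2b held in all 18 tumors. Cdk4 exceeded Ccnd1 in 12 of 18, and Ccnd3 exceeded Ccnd2 in 7 of 18. The order, and the shares per kilobase given below, depend on the divisor, the summed length of all annotated exons, which can exceed that of the transcripts present. By CPM without the divisor, Cdkn2a was below Cdkn2b in YZ11 (39.3 against 42.3) and JM1126 (42.7 against 63.2). Between tumors, Cdk4 and Ccnd3 varied least: 21.7% and 23.1% of 15197 measured protein-coding genes had a smaller SD of log2 level over the 18 tumors. Ccnd2 varied most, with 91.6% of protein-coding genes below it, and Cdkn2a (75.7%), Ccnd1 (74.1%) and Cdkn2b (73.7%) followed.

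**Figure D1:**
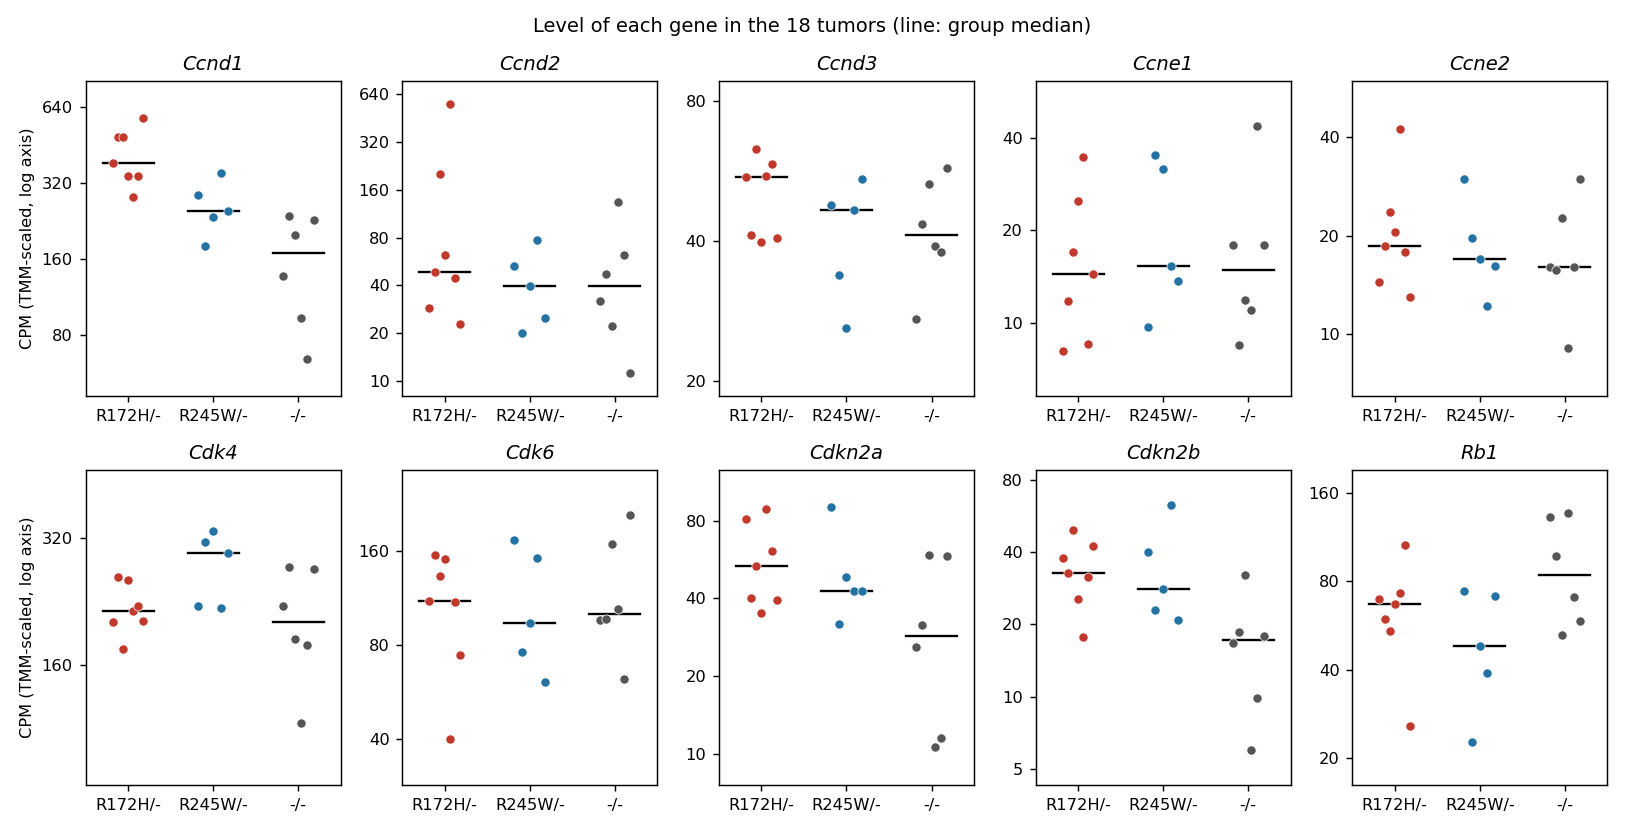
CPM (TMM-scaled, log axis) of each of the 10 genes, 1 point per tumor, in MaP R172H/- (red, n = 7), MaP R245W/- (blue, n = 5) and MaP -/- tumors (grey, n = 6), with lines at the group medians. Ccnd1 in MaP R172H/- tumors lies between 282 and 579 CPM, above every MaP -/- tumor (64.4 to 237 CPM), whereas the groups overlap for the other 9 genes.

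Ccnd1 (ENSMUSG00000070348.6, GRCm39 chr7:144483668-144493662, minus strand) encodes cyclin D1, the D-type cyclin that the mammary epithelium depends on most. Its level in MaP R172H/- tumors had a lowest value of 282 CPM (YZ7), a median of 385 and a highest of 579 (YZ11). MaP R245W/- tumors held 288 CPM (JM1233), 181 (JM1564), 234 (RM0014), 352 (JM1126) and 249 (JM1133). MaP -/- tumors ran from 64.4 CPM (JM833-T2) through a median of 169 to 237 (JM663-T1). Every MaP R172H/- tumor was thus above every MaP -/- tumor, and the MaP R245W/- tumors overlapped both groups, with JM1564 lowest and JM1126 highest among them.

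Against MaP -/-, the log2 fold change of Ccnd1 in MaP R172H/- tumors was 1.39 ± 0.31 (SE, FDR 0.0142, edgeR quasi-likelihood test, 7 against 6 tumors), with mean levels of 414 ± 105 and 160 ± 72.4 CPM (SD). It was the 1 member of 10 that passed, where 8.4% of the 20954 genes tested passed in either direction and 3.67% passed as higher. At an unadjusted p under 0.05 there were 2 members (Ccnd1 and Cdkn2b) and 24.7% of genes. It was also the 1 member whose groups did not overlap, as 4.63% of genes tested did not. Leaving out both JM833 tumors, the lowest in Ccnd1, gave 1.06 ± 0.24 (FDR 0.0245), and leaving out each tumor in turn gave 1.22 to 1.53 with every FDR at or under 0.0359. The main test counts the 6 MaP -/- tumors from 4 mice as separate. Ccnd1 also passed with the tumors of a mouse summed, as in all 8 alternatives other than leaving out 1 tumor. Against MaP -/-, MaP R245W/- tumors had a log2 fold change of 0.70 ± 0.33 (FDR 0.434), and MaP R172H/- exceeded MaP R245W/- by 0.67 ± 0.29 (FDR 0.162). Neither of these passed.

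Marker levels moved with this comparison. All 8 epithelial markers had a log2 fold change above 0 in MaP R172H/- against MaP -/- tumors (median 1.24), though none passed the test. All 12 immune markers were below 0 and 4 passed, and all 6 endothelial markers were below 0 and 1 passed. The fibroblast markers split, with 4 of 8 above 0 and 3 of 8 passing as lower. Of the 20954 genes tested, 992 passed as lower. All 6 adipocyte markers had a log2 fold change below 0 (median -3.30, 2 at an unadjusted p under 0.05, none passed by edgeR), and their summed level was 6.94 to 244.98 CPM in MaP R172H/- and 24.6 to 3280 CPM in MaP -/- tumors, highest in JM833-T1 (3280 CPM) and JM833-T2 (337 CPM), which had the least Ccnd1. Of 5 muscle markers tested, 4 were above 0 and none passed. The summed immune level was 588 to 901 CPM in MaP R172H/- and 695 to 2573 CPM in MaP -/- tumors. The summed epithelial level was 370 to 8327 CPM in MaP R172H/- and 163 to 2700 CPM in MaP -/- tumors, with 0 of 8 markers at 0 in all tumors of either group. Within the groups, YZ11 was highest in both epithelial markers and Ccnd1 (8327 and 579 CPM) and YZ7 lowest in both (370 and 282 CPM) among MaP R172H/- tumors, and JM663-T1 was highest in both (2700 and 237 CPM) among MaP -/- tumors. MaP R245W/- tumors did not follow this order. JM1564 was highest in epithelial markers and lowest in Ccnd1 (5848 and 181 CPM), and JM1126, highest in Ccnd1 (352 CPM), had 3731 CPM of epithelial markers. The median epithelial sum was 4111 CPM in MaP R245W/- and 4040 CPM in MaP R172H/- tumors. JM779-T1, with the lowest epithelial sum of all (163 CPM), had 229 CPM of Ccnd1, and JM833-T2, with 1067 CPM of epithelial markers, had the lowest Ccnd1. The part of cell composition in the Ccnd1 difference was not tested.

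Ccnd2 (ENSMUSG00000000184.13, chr6:127102125-127129156, minus strand) encodes cyclin D2, which pairs with the same kinases and is used in place of cyclin D1 in several other tissues. It had the widest range of the 10 genes, from 11.3 CPM in JM779-T1 to 550 CPM in YZ7. MaP R172H/- tumors had a lowest value of 22.9 CPM (YZ11) and a median of 48.3, and YZ4 was second highest at 201 CPM. MaP R245W/- tumors held 52.8 CPM (JM1233), 20.1 (JM1564), 39.9 (RM0014), 77.6 (JM1126) and 24.8 (JM1133), and MaP -/- tumors ran from 11.3 through a median of 39.7 to 134 CPM (JM833-T1). YZ7 and YZ4 stood above all other tumors, and the 3 groups overlapped.

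The log2 fold change of Ccnd2 in MaP R172H/- against MaP -/- was 1.43 ± 0.79 (SE, FDR 0.286) and against MaP R245W/- 1.67 ± 0.79 (FDR 0.191), so neither passed despite being the largest of the 10 genes. Without YZ7 these values dropped to 0.44 (FDR 0.693) and 0.66 (FDR 0.533). The MaP -/- value was carried by 1 mouse in turn: with both JM833 tumors left out, the MaP R172H/- log2 fold change became 2.30 ± 0.94 (FDR 0.163). MaP R245W/- and MaP -/- differed by -0.27 ± 0.57 (FDR 0.868), which became 0.62 ± 0.49 (FDR 0.797) without JM833.

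Ccnd3 (ENSMUSG00000034165.17, chr17:47815767-47910624, plus strand), for cyclin D3, stayed between 25.9 CPM (RM0014) and 63.2 CPM (YZ4), a 2.44-fold range over 18 tumors. Its log2 fold changes were 0.25 ± 0.19 (MaP R172H/- against MaP -/-), -0.05 ± 0.24 (MaP R245W/- against MaP -/-) and 0.28 ± 0.21 (MaP R172H/- against MaP R245W/-), with FDR from 0.438 to 0.950. A pseudogene of it, Ccnd3-ps, is listed in the same table, and reads that fit both can be divided between them.

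The share of each D-type cyclin was even over most tumors, with 3 exceptions. Of the summed Ccnd1, Ccnd2 and Ccnd3 level per kilobase, Ccnd1 made up 78.3% to 94.7% in 15 of the 18 tumors. The exceptions were YZ7 with 47.8% Ccnd1 and 47.4% Ccnd2, JM833-T1 with 51.7% and 37.3%, and JM833-T2 with 55.7% and 27.3%. These 3 tumors did not have the same total: YZ7 reached 123 CPM per kb, within the MaP R172H/- range of 82.0 to 130, whereas the JM833 tumors had 38.1 and 24.2, the latter the lowest of all. The summed level was 82.0 CPM per kb or more in all MaP R172H/- tumors, 43.6 to 86.9 in MaP R245W/- and 24.2 to 59.3 in MaP -/- tumors. Since Ccnd1 makes up most of this sum, the sum follows the Ccnd1 result and is not a separate one.

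Ccne1 (ENSMUSG00000002068.17, chr7:37797404-37808264, minus strand) encodes cyclin E1, the E2F-driven partner of CDK2. Its groups overlapped almost fully: MaP R172H/- tumors ran from 8.07 (YZ2) through a median of 14.4 to 34.6 CPM (YZ7), and MaP -/- tumors from 8.49 (JM663-T1) through 14.9 to 43.8 CPM (JM833-T2). MaP R245W/- tumors split, with 35.2 CPM in JM1564 and 31.8 in RM0014 against 9.68 in JM1233, 15.3 in JM1126 and 13.7 in JM1133. Log2 fold changes were -0.10 ± 0.43, 0.18 ± 0.47 and -0.31 ± 0.45 in MaP R172H/- against MaP -/-, MaP R245W/- against MaP -/- and MaP R172H/- against MaP R245W/- (FDR 0.714 to 0.911), and the sign of the first was reversed to 0.29 without the JM833 tumors. The 4 highest tumors, JM833-T2, JM1564, YZ7 and RM0014, belonged to all 3 genotypes. JM833-T1 and JM833-T2 grew in 1 mouse and had 10.98 and 43.8 CPM, a 3.99-fold difference and the widest gap within a mouse among the 10 genes in either mouse with 2 tumors.

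Ccne2 (ENSMUSG00000028212.17, chr4:11190303-11204947, plus strand), for cyclin E2, was lowest in JM833-T1 (9.04 CPM) and highest in YZ7 (42.4 CPM), with group medians of 18.6 CPM in MaP R172H/-, 17.0 in MaP R245W/- and 16.02 in MaP -/- tumors. The next highest were JM779-T1 (29.8 CPM) and JM1233 (29.7 CPM), so the high values again lay in all 3 groups. The 3 log2 fold changes lay between 0.05 ± 0.31 and 0.25 ± 0.31 (FDR 0.664 to 0.957). Of the summed Ccne1 and Ccne2 level per kilobase, Ccne1 made up between 33.6% (JM1233) and 80.9% (JM833-T2), so either gene could be the more abundant one.

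Cdk4 (ENSMUSG00000006728.13, chr10:126895180-126903789, plus strand), a catalytic partner of the D-type cyclins, had the smallest SD of log2 level of the 10 genes (0.358, with Ccnd3 at 0.365). From lowest to highest tumor, however, Cdk4 spanned 2.85-fold and Ccnd3 2.44-fold. It ran from 175 (YZ4) to 259 CPM (YZ3) in MaP R172H/- tumors, from 218 (JM1126) to 332 CPM (RM0014) in MaP R245W/- and from 117 (JM833-T1) to 273 CPM (JM663-T1) in MaP -/- tumors. MaP R245W/- had the highest mean, 276 ± 53.0 CPM (SD, n = 5), but no comparison passed: the log2 fold changes were 0.09 ± 0.19, 0.41 ± 0.23 and -0.34 ± 0.19 in the same order as above (FDR 0.804, 0.4997 and 0.286). Cdk6 (ENSMUSG00000040274.12, chr5:3391485-3581008, plus strand), the alternative kinase, was lowest in YZ7 (40.1 CPM) and highest in JM779-T1 (208 CPM), and its log2 fold changes lay between -0.14 and -0.01 with SE of 0.33 to 0.35 (FDR 0.841 to 0.990). Cdk4 made up 82.1% to 95.7% of the summed kinase level per kilobase, with the highest share in YZ7, the tumor with most Ccnd2.

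Cdkn2a (ENSMUSG00000044303.7, chr4:89192708-89212890) and Cdkn2b (ENSMUSG00000073802.6, chr4:89223204-89229276) lie next to each other on the minus strand. Counts of Cdkn2a join the INK4A and ARF transcripts, which share their later exons, so these data do not separate p16INK4A from p19ARF. Promoter sequences (250 bases before to 50 after a start, RefSeq, build GRCm38.p6, minus strand) are shown for these neighbours because they had low levels in the same tumors, and because the 2 listed starts of Cdkn2a, the ARF start upstream and the INK4A start downstream, carry different letters. The ARF window is chr4:89294570-89294869, the INK4A window chr4:89282143-89282442 and the Cdkn2b window chr4:89310983-89311282. Capitals mark matches on either strand to an E2F motif (TTTCCCGC or TTTGGCGC), the GC box GGGCGG and the cyclic AMP response element TGACGTCA.
Cdkn2a (ARF start): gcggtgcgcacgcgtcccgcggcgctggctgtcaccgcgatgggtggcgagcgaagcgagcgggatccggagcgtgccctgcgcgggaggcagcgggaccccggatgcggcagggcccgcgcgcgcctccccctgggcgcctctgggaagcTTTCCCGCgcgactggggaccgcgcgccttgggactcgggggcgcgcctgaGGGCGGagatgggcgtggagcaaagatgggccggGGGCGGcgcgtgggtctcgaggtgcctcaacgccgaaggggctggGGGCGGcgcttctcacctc
Cdkn2a (INK4A start): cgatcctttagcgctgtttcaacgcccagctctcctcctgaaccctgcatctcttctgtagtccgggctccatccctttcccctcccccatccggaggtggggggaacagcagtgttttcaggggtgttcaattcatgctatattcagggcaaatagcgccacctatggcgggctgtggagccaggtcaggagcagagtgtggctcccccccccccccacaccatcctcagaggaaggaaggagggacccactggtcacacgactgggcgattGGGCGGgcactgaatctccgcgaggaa
Cdkn2b: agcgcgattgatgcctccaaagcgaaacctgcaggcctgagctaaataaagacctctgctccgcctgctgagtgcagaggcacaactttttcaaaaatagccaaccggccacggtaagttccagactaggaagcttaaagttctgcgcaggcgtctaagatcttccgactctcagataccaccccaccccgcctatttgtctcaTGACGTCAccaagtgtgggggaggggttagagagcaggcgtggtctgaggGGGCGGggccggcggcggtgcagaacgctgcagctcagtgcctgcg
The ARF window held 1 E2F match and 3 GC boxes, the INK4A window 1 GC box, and the Cdkn2b window 1 cyclic AMP response element and 1 GC box. Of 32851 RefSeq promoter windows of the same length, 1.56% held the E2F motif, 35.7% the GC box and 1.79% the response element. These matches describe letters and do not show binding.

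Cdkn2a levels in MaP R172H/- tumors ran from 35.0 (YZ6) through a median of 53.1 to 89.0 CPM (YZ7). MaP R245W/- tumors held 89.9 CPM (JM1233), 31.8 (JM1564), 48.4 (RM0014), 42.7 (JM1126) and 42.6 (JM1133). MaP -/- tumors held 58.7 CPM at most (JM663-T2), with a median of 28.7, and both JM833 tumors were far lower at 10.6 and 11.4 CPM. The groups overlapped, and the JM833 tumors were the lowest of all 18. The log2 fold change was 0.81 ± 0.42 (FDR 0.253) in MaP R172H/- and 0.64 ± 0.47 (FDR 0.599) in MaP R245W/- tumors against MaP -/-, which dropped to 0.39 (FDR 0.501) and 0.23 (FDR 0.901) without JM833. The mutants differed from each other by 0.16 ± 0.41 (FDR 0.849).

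Cdkn2b was lowest in the same mouse, with 5.998 CPM in JM833-T1 and 9.90 in JM833-T2, and the other MaP -/- tumors lay between 16.7 (JM836-T1) and 32.3 CPM (JM663-T2). MaP R172H/- tumors ran from 17.8 (YZ7) through a median of 32.9 to 49.5 CPM (YZ4), and MaP R245W/- tumors held 40.2 (JM1233), 23.03 (JM1564), 28.2 (RM0014), 63.2 (JM1126) and 20.8 CPM (JM1133). Both mutant groups thus had higher medians than the MaP -/- group, with overlap between the groups. The log2 fold change was 1.03 ± 0.35 in MaP R172H/- (unadjusted p = 0.0103, FDR 0.0841 by edgeR) and 1.05 ± 0.42 in MaP R245W/- tumors (unadjusted p = 0.0267, FDR 0.384 by edgeR), and neither passed. DESeq2 put the first of these past the threshold (1.03, FDR 0.0475), as did leaving out JM663-T2 (1.32, FDR 0.0357), whereas leaving out both JM833 tumors gave 0.68 ± 0.29 (FDR 0.184) and 0.72 ± 0.38 (FDR 0.750). The mutants differed by -0.05 ± 0.36 (FDR 0.950).

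The ratio of Cdkn2a to Cdkn2b CPM had like medians in the 3 groups (1.36, 1.72 and 1.73 in MaP R172H/-, MaP R245W/- and MaP -/-). It was 1.76 and 1.16 in the JM833 tumors, inside the range of the others, since both genes were low there. The ends of the range were YZ7 at 4.998, with a high Cdkn2a and the lowest Cdkn2b of its group, and JM1126 at 0.676.

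Rb1 (ENSMUSG00000022105.7, chr14:73421113-73563507, minus strand), whose product is the substrate of CDK4 and CDK6, had its highest median in MaP -/- tumors, 84.0 CPM, with a range of 52.4 (JM663-T2) to 137 CPM (JM833-T1). MaP R172H/- tumors ran from 25.8 (YZ11) through a median of 67.0 to 106 CPM (YZ10). MaP R245W/- tumors held 74.3 CPM (JM1233), 22.7 (JM1564), 48.2 (RM0014), 38.9 (JM1126) and 71.5 (JM1133). The groups overlapped, and JM1564 and YZ11 were the lowest tumors. Log2 fold changes against MaP -/- were -0.47 ± 0.30 in MaP R172H/- (FDR 0.357) and -0.85 ± 0.36 in MaP R245W/- tumors (unadjusted p = 0.0359, FDR 0.394 by edgeR), and MaP R172H/- differed from MaP R245W/- by 0.35 ± 0.34 (FDR 0.562).

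Over all members, MaP R245W/- against MaP -/- gave 0 of 10 calls by edgeR, with 2 members (Cdkn2b and Rb1) at an unadjusted p under 0.05. In that comparison 0% of the 21452 genes tested passed and 11.8% were under 0.05 unadjusted, no member was free of overlap between the groups where 1.31% of genes were, and DESeq2 called 424 genes, 0 of them members. MaP R172H/- against MaP R245W/- gave 0 of 10 calls by edgeR and by DESeq2, with 2 members (Ccnd1 and Ccnd2) under 0.05 unadjusted, where 9.4% of 22481 genes passed and 25.9% were under 0.05 unadjusted. No member was free of overlap there either, as 5.81% of genes were. The median log2 fold change of the 10 members was 0.25, 0.12 and 0.17 in the 3 comparisons, beside 0.00, 0.02 and 0.00 for all genes tested. The comparisons share tumors and are not independent of each other.

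**Figure D2:**
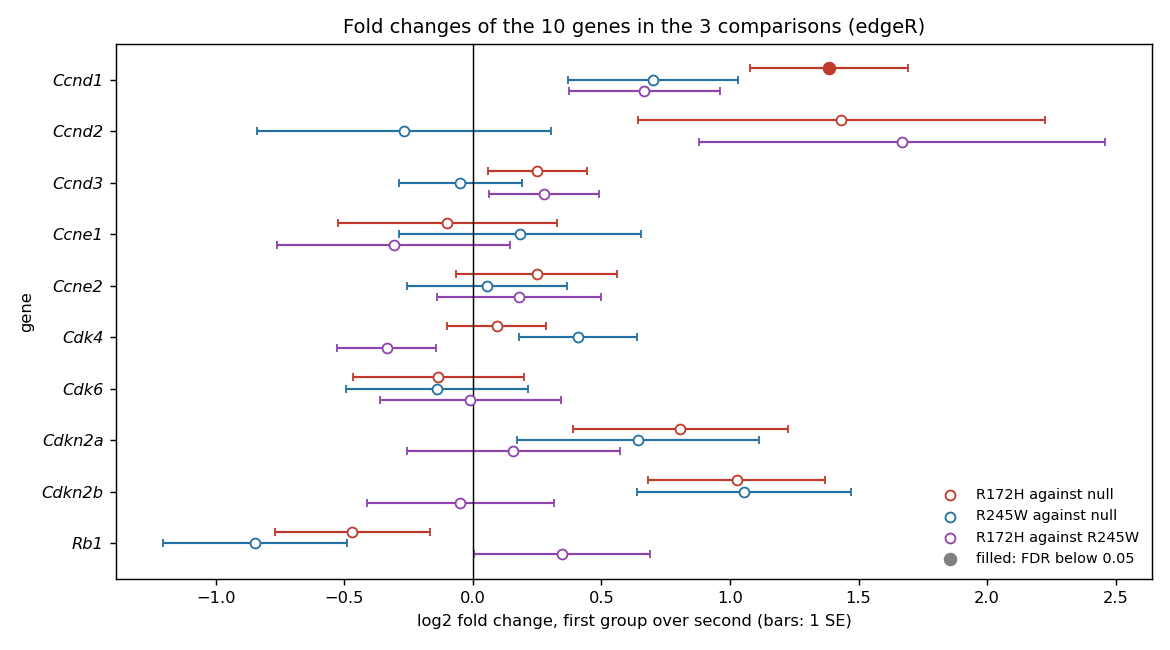
Log2 fold change (x axis, bars 1 SE) of each gene in MaP R172H/- against MaP -/- (red), MaP R245W/- against MaP -/- (blue) and MaP R172H/- against MaP R245W/- (purple), with filled points at FDR under 0.05. Only Ccnd1 in MaP R172H/- against MaP -/- (1.39 ± 0.31) is filled, and Ccnd2 has the widest error (0.79).

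Calls among the other genes of the pathway came at shares that can be read against the 8.4%, 0% and 9.4% of all genes called in the 3 comparisons. None of the other CDK inhibitors (Cdkn1a, Cdkn1b, Cdkn1c, Cdkn2c and Cdkn2d) passed in any comparison. Cdkn2c, for p18INK4C, had the smallest p in MaP R172H/- against MaP -/- with a log2 fold change of -0.92 ± 0.61 (FDR 0.376), and 1 MaP -/- tumor held 126 CPM of it against 8.27 CPM in the lowest. Cdkn1c, for p57KIP2, followed at 1.18 ± 0.86 (FDR 0.419). In MaP R245W/- against MaP -/- the smallest p belonged to Cdkn2c (-0.77 ± 0.70, FDR 0.681) and Cdkn1b, for p27KIP1 (0.20 ± 0.19, FDR 0.695). Between the mutants it belonged to Cdkn1c (1.09 ± 0.88, FDR 0.462) and Cdkn1b (-0.12 ± 0.19, FDR 0.721).

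Among 19 pocket proteins, E2F and DP factors, CDK2 and its activators, 2 passed in MaP R172H/- against MaP -/- tumors, near the 8.4% of all genes. E2f2, an activating E2F, was higher (log2 fold change 0.61 ± 0.17, FDR 0.0461, 18.3 ± 1.22 against 12.1 ± 3.13 CPM). Mnat1, the assembly factor of the kinase that activates CDK2 and CDK4, was lower (-0.54 ± 0.15, FDR 0.0419). Mnat1 was also lower in MaP R172H/- than in MaP R245W/- tumors (-0.78 ± 0.16, FDR 0.00482), at 18.3 ± 2.97 against 31.6 ± 6.59 CPM with no overlap, as for 5.81% of all genes. It was the 1 of 19 that passed there. In MaP R245W/- against MaP -/- none of the 19 passed, and the smallest p belonged to E2f1 (-0.43 ± 0.29, FDR 0.562) and Ccna2 (0.48 ± 0.36, FDR 0.603).

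Of 20 E2F target genes of S phase entry, only Pcna, the sliding clamp of DNA polymerase, passed in MaP R172H/- against MaP -/- tumors, and it was lower (-0.86 ± 0.25, FDR 0.0459, 44.9 ± 9.18 against 82.1 ± 34.5 CPM), where 8.4% of all genes passed. Against MaP R245W/- tumors, Pcna (-1.09 ± 0.24, FDR 0.00816) and Gins2, a subunit of the replicative helicase (-0.75 ± 0.22, FDR 0.0382), were lower in MaP R172H/- tumors and neither overlapped. These 2 of 20 stand beside 9.4% of all genes called and 5.81% without overlap. The median log2 fold change of the 20 genes was -0.07, 0.15 and -0.28 in the 3 comparisons in the order given above, with 14, 5 and 17 of 20 below 0. In MaP R245W/- against MaP -/- none passed, and Mcm2 (0.85 ± 0.42, FDR 0.452) and Cdt1 (0.55 ± 0.27, FDR 0.453) had the smallest p.

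Among 12 genes for ubiquitin ligase parts of G1 cyclin turnover and regulators of the INK4 locus, 1 passed: Cbx7, a Polycomb protein that represses Cdkn2a, was higher in MaP R172H/- than in MaP R245W/- tumors (1.06 ± 0.29, FDR 0.0263, 43.0 ± 8.32 against 20.7 ± 4.56 CPM, no overlap), where 9.4% of all genes passed. Cdkn2a did not differ detectably in that comparison. Against MaP -/- none of the 12 passed. The smallest p belonged to Mdm4, a p53 inhibitor, and Ambra1, which targets D-type cyclins for destruction, in MaP R172H/- (-0.42 ± 0.17, FDR 0.132, and 0.29 ± 0.14, FDR 0.219), and to Mdm4 and Cbx7 in MaP R245W/- (-0.50 ± 0.17, FDR 0.360, and -0.91 ± 0.34, FDR 0.368).

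Tumors with an extreme level were sought next, because gain or loss of a locus can raise or lower its genes in a single tumor. Copy number was not measured. A tumor was counted as extreme for a gene when its log2(CPM + 0.5) lay more than 2 from the median of 18 tumors, which is more than 4-fold on that scale. By this rule 3 of 10 members had an extreme tumor, as did 20.9% of the 22481 genes measured and 25.4% of 15197 protein-coding genes, so the members' share was near the background. Without TMM scaling only Ccnd2 met the rule. The extremes were Ccnd2 in YZ7 (3.57, an 11.9-fold difference from the median) and YZ4 (2.12, 4.35-fold), Cdkn2b in JM833-T1 (-2.08) and Ccnd1 in JM833-T2 (-2.03). Just under the limit were Ccnd2 in JM779-T1 (-1.97) and Cdkn2a in JM833-T1 (-1.96) and JM833-T2 (-1.85). Rb1 in JM1564 (-1.57), Ccnd2 in JM833-T1 (1.54) and Ccne1 in JM833-T2 (1.53) were the only others beyond 1.5.

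**Figure D3:**
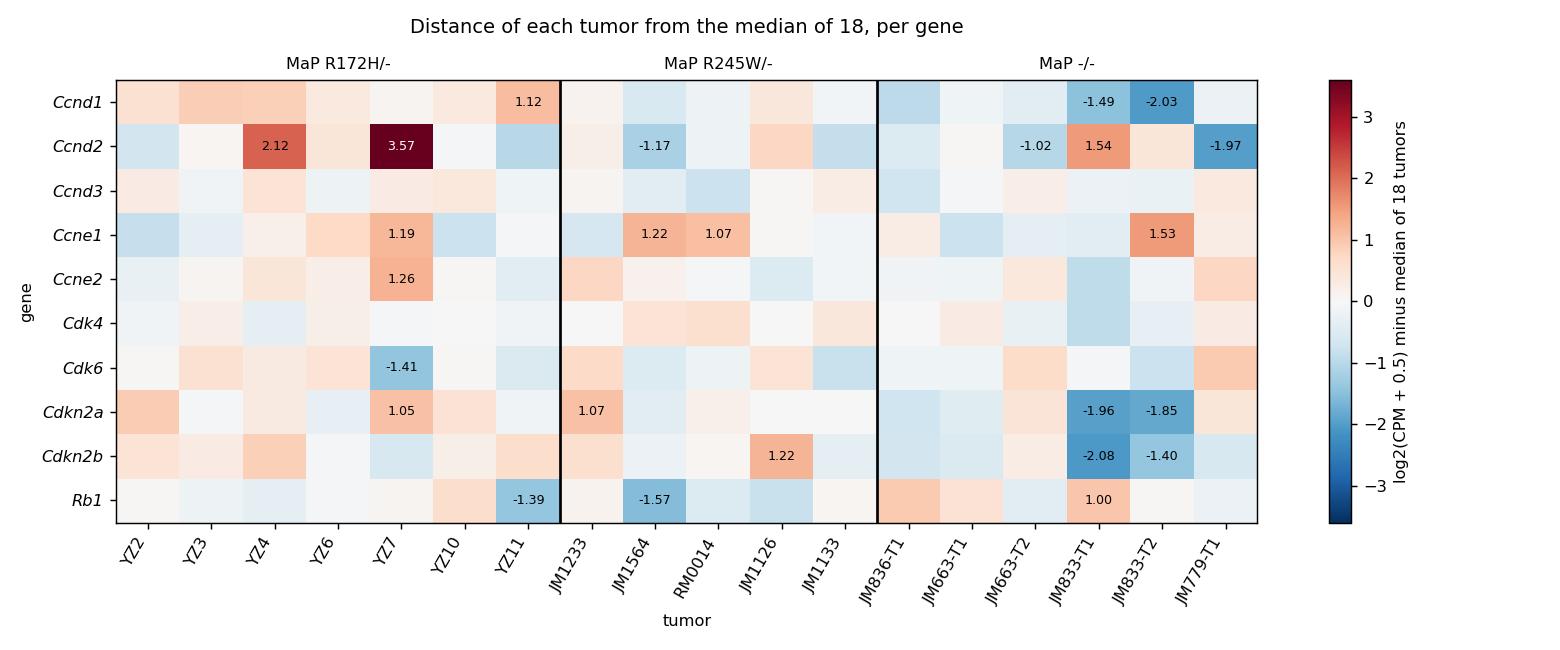
Difference of log2(CPM + 0.5) from the median of 18 tumors for each gene (rows) and tumor (columns, in 3 genotype blocks), on a scale from blue (lower) to red (higher), with values printed where they exceed 1. YZ7 (3.57) and YZ4 (2.12) stand out for Ccnd2, and the JM833 tumors are low for Ccnd1, Cdkn2a and Cdkn2b together.

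For each such gene, the protein-coding genes within 1 Mb, leaving out other members, were examined in the same tumor. Around Ccnd2 in YZ7, 11 neighbours had a median of 0.35 on the same log2 scale, the 4th highest of 18 tumors. The largest value, named here after the values were seen, was that of Kcna6, a potassium channel gene, at 5.63. Tigar, a regulator of glycolysis whose midpoint lies 41.3 kb from that of Ccnd2, was at 31.2 CPM against a median of 9.86 (1.61) and was highest in YZ7 of all tumors. Rad51ap1 was at 0.79 and D6Wsu163e at 0.29, while on the other side Parp11 was at 0.35, Cracr2a at -0.31 and Tspan11 at -1.89. The 3 nearest genes on 1 side were thus all above 0, against 1 of 3 on the other, and chromosome 6 as a whole was at 0.07. In YZ4 Tigar was at 0.72, second highest, but the 11 neighbours had a median of -0.09, rank 12 of 18.

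In mouse JM833 the adjoining members Cdkn2a and Cdkn2b were both low, at -1.96 and -2.08 in JM833-T1 and -1.85 and -1.40 in JM833-T2. Apart from members, the low genes of this mouse had no neighbours within 1 Mb that were as low. Around Ccnd1 in JM833-T2, 9 neighbours had a median of -0.12, and LTO1, at 11.3 kb between midpoints, was at -0.12, Ano1 at -0.28 and Fadd at -0.34. On the other side Smim38 was at 0.10, Tpcn2 at 0.52 and Mrgprf at 0.09. Cttn, the gene of cortactin, named here after the values were seen, was at -1.28, its lowest of 18 tumors. Around Cdkn2b in JM833-T1, 4 neighbours had a median of -0.05: Mtap, which is often lost together with CDKN2A in human tumors, was at -0.70 (31.2 CPM against a median of 51.0), the lowest of 18 tumors, and Klhl9 was at -0.34. In JM833-T2, where Cdkn2a was at -1.85 and Cdkn2b at -1.40, Mtap was at 0.04. Ccne1 in JM833-T2 (1.53) had 5 neighbours with a median of -0.06, of which Uri1 was at -0.02 and Plekhf1 at -1.25.

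Rb1 in JM1564 (-1.57) was the case in which the surroundings were lowest. Its 8 neighbours had a median of -0.32, the lowest of 18 tumors, 1 of 8 was above 0, and Itm2b at 103 kb was at -1.07 (321 CPM against a median of 676), also the lowest of 18. Lpar6, which lies inside Rb1, was at -0.35, and chromosome 14 as a whole was at -0.19. The difference of Rb1 from the median of its neighbours remained over 1 on the log2 scale, whereas Itm2b lay closer to Rb1. Whether any of these values reflects a change of copy number was not tested. YZ7 had the lowest epithelial marker sum of its group (370 CPM), and JM833-T1 held the most adipocyte marker RNA of all tumors (3280 CPM). The part of cell composition in the extreme values was not tested either.

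**Figure D4:**
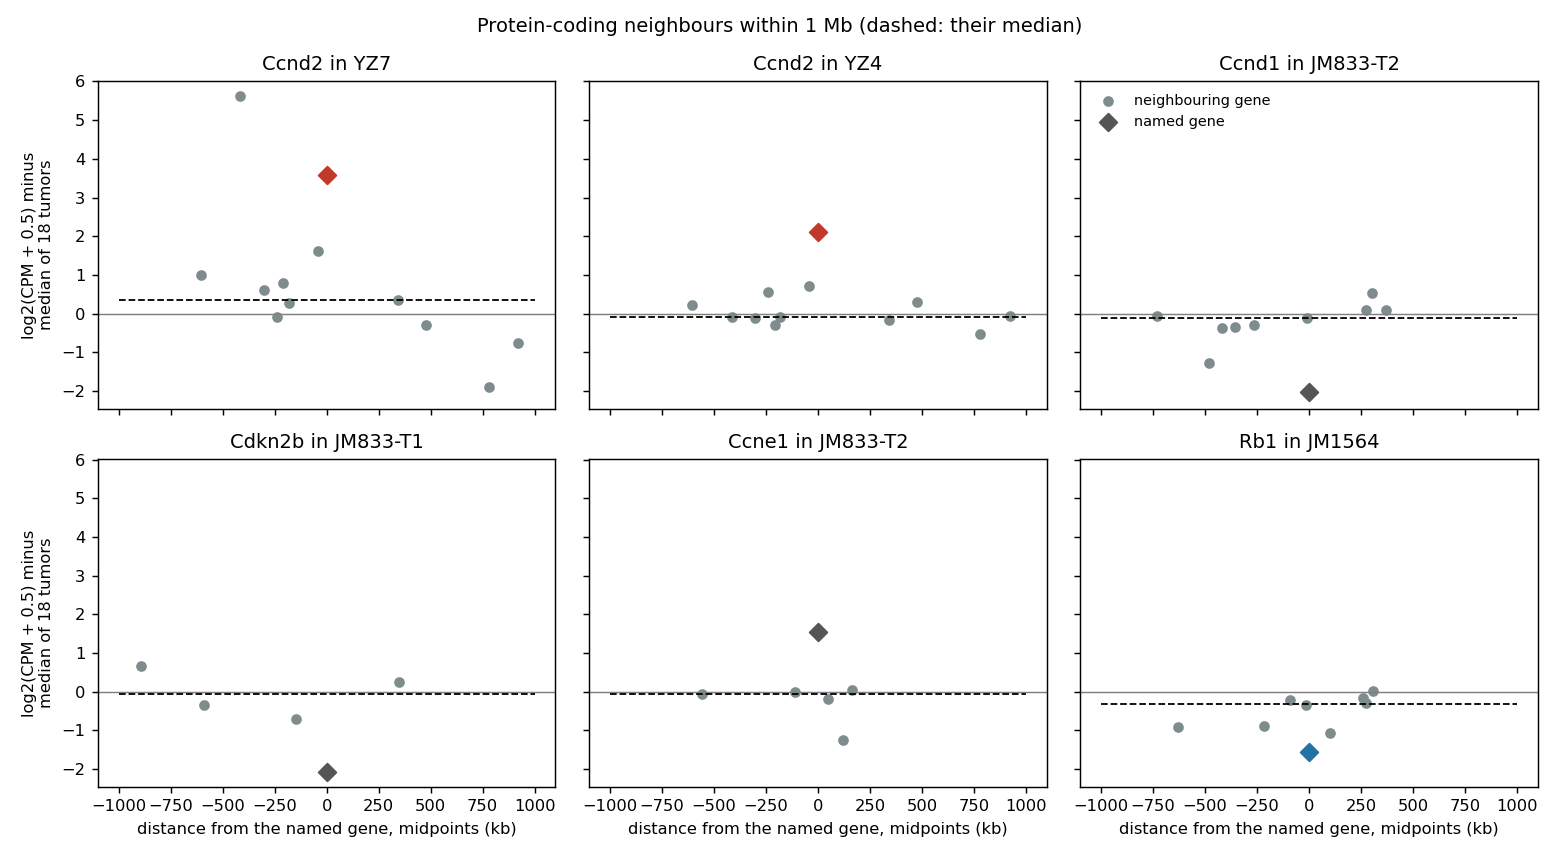
Log2(CPM + 0.5) minus the median of 18 tumors (y axis) for protein-coding genes within 1 Mb (x axis, distance between midpoints in kb, grey points) of a named gene (diamond) in 1 tumor per panel, with a dashed line at the neighbours' median. Other members are not among the grey points. The medians lie between -0.32 (Rb1 in JM1564) and 0.35 (Ccnd2 in YZ7), closer to 0 than the named gene in every panel.

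YZ7 also differed over a whole chromosome that carries 3 members. The median of 933 protein-coding genes on chromosome 4 was 0.64 in YZ7, and 78.6% of them were above their median of 18 tumors. This was the largest shift of any chromosome in any tumor, followed by chromosome 19 in RM0014 at 0.57 and chromosome 9 in YZ7 at 0.46. The other 17 tumors had chromosome 4 medians between -0.14 and 0.16. In YZ7, 7 of 8 bins of 20 Mb along chromosome 4 had medians between 0.38 and 0.88, and the bin from 60 to 80 Mb had -0.26. Ccne2 in YZ7 (1.26) lay in a region where 17 neighbours had a median of 0.77, the highest of 18 tumors, with Ints8 at 0.77 and Ndufaf6 at 1.46. Cdkn2a was higher in YZ7 (1.05) and Cdkn2b lower (-0.58), with their 4 neighbours at 0.05, so the 3 members on this chromosome did not shift alike. The other 6 chromosomes that hold members (5, 6, 7, 10, 14 and 17) had medians within 0.29 of 0 in all 18 tumors. The part of copy number or cell composition in the YZ7 values was not tested.

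**Figure D5:**
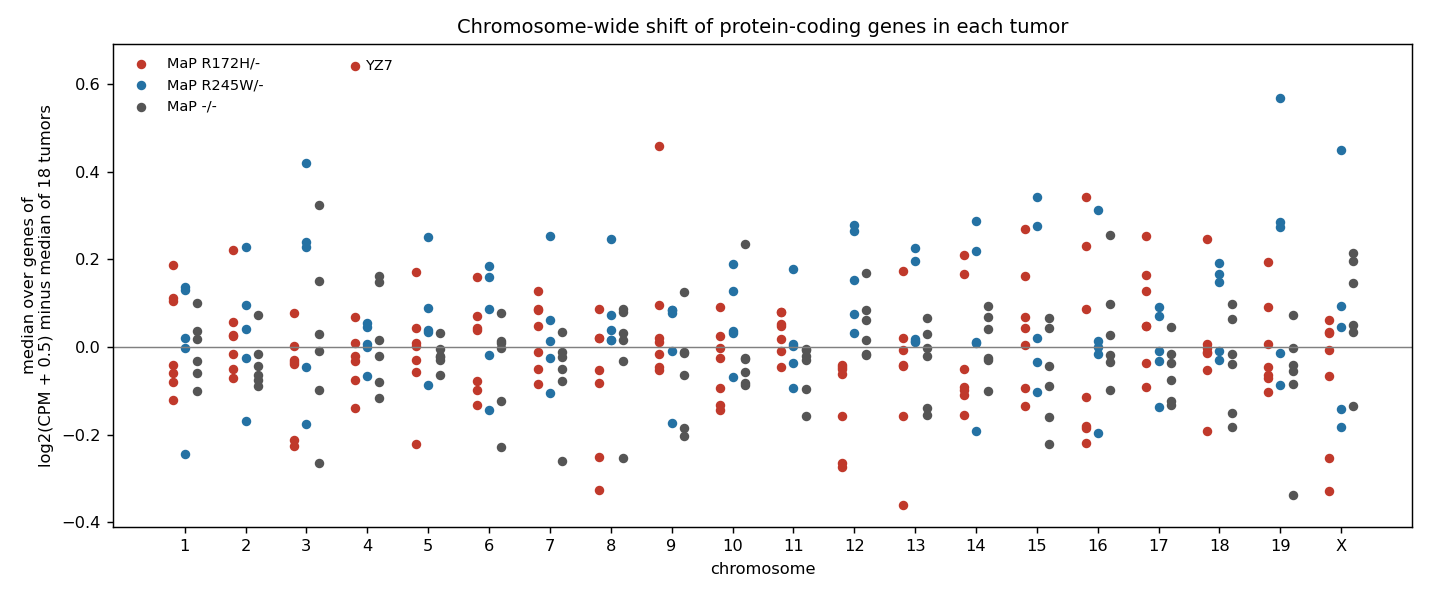
Median over the protein-coding genes of a chromosome (x axis) of log2(CPM + 0.5) minus the median of 18 tumors (y axis), 1 point per tumor, in MaP R172H/- (red), MaP R245W/- (blue) and MaP -/- tumors (grey). Chromosome 4 in YZ7 (0.64) is farthest from 0.

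Relations of Cdkn2a with Rb1, Cdkn2b, Ccne1, Ccnd1 and the mean of the E2F targets were computed over 16 mice, with tumors of 1 mouse averaged and p-values adjusted over the family of 5. The largest was with Ccnd1 (Pearson r = 0.619, permutation p = 0.0139, adjusted 0.0695, and Spearman rho = 0.329, permutation p = 0.215), followed by Cdkn2b (r = 0.558, permutation p = 0.0285, adjusted 0.0713, and rho = 0.338, permutation p = 0.201). Ccne1 (r = -0.305, rho = -0.421), E2F targets (r = 0.284, rho = 0.10) and Rb1 (r = -0.053, rho = 0.129) had adjusted permutation p of 0.358, 0.358 and 0.841 for r. None passed. Without JM1233 and JM833, the mice farthest from the median of Cdkn2a, r became 0.325 for Ccnd1 and 0.087 for Cdkn2b, so both rested on those mice. Within the 9 NovaSeq mice, r was 0.880 for Ccnd1 (exact permutation p = 0.00350, adjusted 0.0175) and 0.728 for Cdkn2b (adjusted exact permutation p = 0.0865). On ranks the first did not pass (rho = 0.667, adjusted exact permutation p = 0.180), and rho was 0.617 for Cdkn2b. Both mice farthest from the median of Cdkn2a are among these 9. Within the 7 HiSeq mice r was -0.568 and -0.311, so the pooled relation did not hold within both instruments.

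Over 18 tumors and 15197 protein-coding genes, the rank correlation of levels described which genes ran most alike with each member. For Ccnd1 they were Bak1 (rho = 0.917) and Zbtb7a (0.913), and for Ccnd2 Mfap2 (0.913) was among them. Ccnd3 had Tceanc2 (0.835) and Fbxo42 (0.822), Ccne1 Rrn3 (0.905) and Rbm19 (0.847), and Ccne2 Bbs7 (0.845) and Utp11 (0.831). Cdk4 had Prdx2 (0.913) and Zfp260 (0.897), and Cdk6 Pde4d (0.891) and Podnl1 (0.874). Cdkn2a had Gpatch11 (0.849) and Clta (0.825), Cdkn2b Myh9 (0.915) and Bicd2 (0.882), and Rb1 Dcx (0.825) and Lrrc39 (0.814). No member was among the 2 genes most alike to another member. The tumors share genotype, instrument and cell composition, so these values are descriptions.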

How the data were processed

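Raw read counts per gene of 18 tumors were deposited by the authors as a single table of 57126 genes, in whole numbers. Per the labels and the study's methods, stranded total RNA libraries depleted of ribosomal RNA were checked with FastQC 0.11.9, aligned to GRCm39 with STAR 2.7.10b and counted with RSEM 1.3.3, which divides reads shared between genes. Each genotype was compared with edgeR 4.0.16 (TMM, filterByExpr, quasi-likelihood test, Benjamini-Hochberg FDR over all genes tested, called under 0.05) in place of the study's DESeq2, which was run as an alternative (1.42.0). MaP R172H/- and MaP R245W/- were each fitted with MaP -/- alone, and against each other within all 18 tumors. The script was tested on simulated data. Of 100 genes changed by a log2 of 1.5, it found 50 in MaP R172H/- against MaP -/-. It found 27 of 100 in MaP R245W/- against MaP -/- and 41 of 100 between the mutants. Genes that did not pass can therefore still differ. Positions of 56620 genes came from a GRCm39 GENCODE annotation, and 506 genes had no match. CPM per kilobase used the summed length of all annotated exons of a gene, with overlaps counted once. Correlations used 100000 permutations, or all of them for 9 or fewer mice. Alternatives were other normalizations, filters, tests, pseudocounts, limits and windows, and leaving out tumors. Named genes were all members, list genes at FDR under 0.05 (otherwise the 2 with smallest p per list), and the nearest neighbours of members with an extreme tumor. A gene among those most alike to a member is not reported here. The members and lists were chosen with earlier results of these data known.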

Additional observations from a re-analysis of the deposited data

Results flagged for a closer look

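Within a genotype, 4 of 30 combinations of a member and a group had 1 tumor set apart from the rest by Dixon's criterion on CPM. Over all genes measured, 15.6% of such combinations met it, so the members' count is near that of other genes. The limits are set for about 5% in normally distributed values, and the CPM were not transformed. In MaP R172H/- tumors, YZ7 was apart for Ccnd2 at 550 CPM and for Ccne2 at 42.4 CPM. In MaP R245W/- tumors, JM1233 was narrowly apart for Cdkn2a at 89.9 CPM (statistic 0.713 against a limit of 0.71). JM1233 also held the most immune (5583 CPM) and skeletal muscle (911 CPM) marker RNA of all tumors, whose part in the value was not tested. In MaP -/- tumors, JM833-T2 was apart for Ccne1 at 43.8 CPM, beside 10.98 CPM in the other tumor of that mouse.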

How the results depend on the processing

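The Ccnd1 call in MaP R172H/- against MaP -/- held under every alternative, with log2 fold changes of 1.06 to 1.53. The count of members called there was 1 in the main test, 2 with the DESeq2 Wald test, which added Cdkn2b (1.03), and 1 to 2 when single tumors were left out, the 2 without JM663-T2 (Cdkn2b 1.32). All genes called there numbered 1760 in the main test, 3432 with DESeq2, 1051 with an absolute log2 fold change above 1, 1126 with the tumors of a mouse summed and 1067 without JM663-T2. MaP R245W/- against MaP -/- had 0 genes called by edgeR and 424 by DESeq2, and MaP R172H/- against MaP R245W/- had 2114 in the main test, 3699 with DESeq2, 1392 with the fold limit and 1401 with at least 10 counts in every tumor. Leaving out both JM833 tumors was chosen after seeing the data. It reversed uncalled fold changes of Ccne1 (0.29) and Cdk4 (-0.11) in MaP R172H/- against MaP -/-, of Ccnd2 (0.62) and Ccne2 (-0.15) in MaP R245W/- against MaP -/-, and of Cdk6 between the mutants (0.0025). Cdk6 between the mutants was also reversed without a filter (0.020), with at least 10 counts (0.017) and with tumors summed (0.012), and Ccne2 in MaP R245W/- with tumors summed (-0.021). Leaving out single tumors moved uncalled values through 0. The ranges in MaP R172H/- against MaP -/- were -0.36 to 0.35 (Ccne1), -0.00099 to 0.46 (Ccne2), -0.28 to 0.098 (Cdk6) and -0.029 to 0.20 (Cdk4). In MaP R245W/- against MaP -/- they were -0.58 to 0.29 (Ccnd2), -0.16 to 0.078 (Ccnd3), -0.076 to 0.65 (Ccne1), -0.17 to 0.25 (Ccne2) and -0.36 to 0.070 (Cdk6), and between the mutants -0.075 to 0.40 (Ccne2), -0.16 to 0.21 (Cdk6) and -0.19 to 0.28 (Cdkn2b). The cause was not tested. Members with an extreme tumor numbered 3, but 6 at a limit of 1.5, 1 at 3 and 1 without TMM. With 18 tumors in place of mice, r with Cdkn2a became 0.691 for Cdkn2b and 0.699 for Ccnd1, both past the threshold with the JM833 tumors counted separately but not on ranks (rho 0.496 and 0.445, adjusted permutation p = 0.167 for both), and r for Rb1 became 0.170 without the 2 farthest mice. No paired analysis was possible because the replicate numbers only name the tumors and link none across genotypes.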
